A study of Mus musculus with 12 samples.

Results

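The 10 genes described here belong to the circadian clock: Arntl (named Bmal1 in newer annotations), Per1, Per2, Per3, Cry1, Ciart, Bhlhe41, Nr1d1, Nr1d2 and Dbp. They were chosen by name, with earlier results of these data known, from the 57010 Ensembl genes of the count table. All 10 passed the filter on low counts that left 19166 genes for testing. RNA was sequenced in bulk from mouse cerebellum (crus 1, a lobule of the lateral hemisphere, by the series' design text), in 3 groups of 4 libraries. The poly(I:C) knockout group held Fmr1 knockout mice injected into the peritoneal cavity with poly(I:C), an artificial RNA duplex used to mimic infection by a virus. The saline knockout group held Fmr1 knockout mice given saline, and the FVB group held mice of the FVB background strain given saline. The sample titles call the saline knockout sham. Without an FVB group on poly(I:C), no interaction of genotype and treatment was tested here. Fmr1 encodes FMRP, the RNA-binding protein lost in fragile X syndrome. The sources used here do not give the dose of poly(I:C), the interval to collection, the age of the mice, the hour of collection or the knockout allele. Nothing in the labels ties each sample to an animal of its own, so the p-values speak for the spread among the samples, which may be technical.

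In the mammalian clock the protein of Arntl pairs with CLOCK or NPAS2 and switches on genes that carry an E-box, among them the Per, Cry and Nr1d genes and Dbp. PER and CRY proteins, with CIART and BHLHE41, shut this pair off again, and the NR1D proteins repress Arntl through a separate element, the RRE. DBP drives further genes through the D-box. As background, Arntl transcript peaks at about the opposite time of day from Nr1d1 and Dbp in most mouse tissues.

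Promoters are shown because this wiring runs through short DNA elements. RefSeq windows on GRCm38.p6, from 250 bases before to 50 bases after the annotated start, were matched for 9 of the 10 genes (11 windows, 2 each for Arntl and Per1), and Per2 was not among them. Both strands were searched for the E-box CACGTG, its variant CACGTT, the D-box (TTATGTAA or TTACGTAA), the cyclic AMP element TGACGTCA and the RRE. An E-box occurred in the windows of 4 members, Per1, Cry1, Ciart and Bhlhe41, and in 7.15% of all 32851 windows. The variant CACGTT occurred in Cry1 and Nr1d1 (4.68% of all windows), the D-box only in Per3, where it occurred 2 times (1.06%), the RRE only in the second Arntl window (0.18%), and TGACGTCA in none of the 11 (1.79%). A match is a run of letters and not a binding site, and elements outside these windows were not searched. The windows of the 2 members that passed the test in a comparison, Bhlhe41 (chr6:145865371-145865670, minus strand) and Nr1d1 (chr11:98775328-98775627, minus strand), are printed first. That of Ciart (chr3:95882179-95882478, minus strand) is shown for its 3 E-boxes and the second window of Arntl (chr7:113207261-113207560, plus strand) for its RRE. Sequences run 5′ to 3′ on the strand named, as the RefSeq table gives them, and capitals mark the matched elements. The bases just after the start were found in a GENCODE M21 transcript of the gene for 3 of these 4 windows, but not for Nr1d1. Its RefSeq start lies upstream of the 5′ end of the GENCODE gene, so its direction was not checked in this way.
Bhlhe41: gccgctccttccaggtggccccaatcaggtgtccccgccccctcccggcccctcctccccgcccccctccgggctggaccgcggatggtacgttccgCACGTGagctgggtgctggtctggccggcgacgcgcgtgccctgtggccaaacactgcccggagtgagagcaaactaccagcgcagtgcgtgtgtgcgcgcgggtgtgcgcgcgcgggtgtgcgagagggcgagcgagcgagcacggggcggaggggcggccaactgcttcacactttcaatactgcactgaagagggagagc
Nr1d1: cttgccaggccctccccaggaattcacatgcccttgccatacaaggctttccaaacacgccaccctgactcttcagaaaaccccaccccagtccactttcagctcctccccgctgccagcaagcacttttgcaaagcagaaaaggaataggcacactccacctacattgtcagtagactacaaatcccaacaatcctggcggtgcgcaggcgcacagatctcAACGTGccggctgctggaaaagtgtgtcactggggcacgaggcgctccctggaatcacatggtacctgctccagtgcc
Ciart: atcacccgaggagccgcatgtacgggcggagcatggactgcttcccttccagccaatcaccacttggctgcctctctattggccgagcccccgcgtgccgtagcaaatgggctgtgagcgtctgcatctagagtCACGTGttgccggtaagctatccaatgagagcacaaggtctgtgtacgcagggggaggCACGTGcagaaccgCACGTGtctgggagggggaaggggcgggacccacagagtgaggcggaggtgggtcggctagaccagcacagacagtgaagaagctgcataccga
Arntl: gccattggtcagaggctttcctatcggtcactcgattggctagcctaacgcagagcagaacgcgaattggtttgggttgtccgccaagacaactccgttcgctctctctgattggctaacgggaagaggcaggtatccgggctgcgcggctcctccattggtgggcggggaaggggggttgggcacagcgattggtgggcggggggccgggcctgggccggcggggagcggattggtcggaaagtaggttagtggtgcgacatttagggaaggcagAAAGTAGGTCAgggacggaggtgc

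The libraries held 39.4 to 56.4 M counts in the poly(I:C) knockout, 38.7 to 50.2 M counts in the saline knockout and 35.2 to 48.7 M counts in FVB, and each member had at least 569 counts in every library. Levels are given as CPM, a gene's counts relative to its library's total after TMM scaling, which evens out differences in composition. Fmr1 was at 33.9 to 36.0 CPM in the poly(I:C) knockout, 27.9 to 36.7 CPM in the saline knockout and 85.5 to 108 CPM in FVB. All markers of granule cells, Purkinje cells and Bergmann glia on the lists used had counts in every library. Of the 5 glial ones, Hopx averaged 66.5, 99.6 and 104 CPM and Aqp4 363, 466 and 457 CPM in the poly(I:C) knockout, saline knockout and FVB. Gfap averaged 194, 158 and 152 CPM, Gdf10 260, 253 and 243 CPM and Slc1a3 1688, 1853 and 1782 CPM. With poly(I:C), edgeR called 1 of the 5 lower over the saline knockout and 1 over FVB, where 1.06% and 3.24% of all genes were called lower. Choroid plexus markers set 3 libraries apart: their 15 genes summed to 155 to 4131 CPM in the poly(I:C) knockout and 206 to 6344 CPM in the saline knockout, against 213 to 289 CPM in FVB, with 12 of the 15 detected in every library and none at 0 in a whole group. Ttr alone exceeded 1000 CPM in poly(I:C) knockout 2 and 3 and saline knockout 2, so results are also given without these libraries where that changes them. The 4 endothelial markers summed to 121 to 155 CPM in the poly(I:C) knockout. The sum was 164 to 206 CPM in the saline knockout and 157 to 192 CPM in FVB. Slco1a4 averaged 26.7, 51.5 and 42.7 CPM in these groups, and Flt1 65.2, 75.0 and 79.0 CPM. Cldn5 averaged 25.2, 26.3 and 23.8 CPM and Pecam1 26.1, 28.8 and 27.7 CPM, so the sum does not describe all 4 alike. The part of these genes in the results with poly(I:C) was not tested. In bulk tissue, fewer cells of a type and less RNA per cell cannot be told apart.

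Levels between genes were compared as CPM per kilobase of exon, with exon lengths from GENCODE M21. Nr1d1 and Nr1d2, the nuclear receptors that repress Arntl, led in every group. Nr1d1 was at 38.9 ± 4.91 in the poly(I:C) knockout, 40.3 ± 4.81 in the saline knockout and 49.2 ± 4.01 in FVB, and Nr1d2 at 45.2 ± 2.5, 46.5 ± 3.54 and 45.9 ± 3.54 (CPM per kilobase, SD, n = 4), in the same order of groups. In FVB, Dbp (19.6 ± 4.18), Cry1 (17.7 ± 0.633) and Per1 (16.9 ± 2.48) followed, and the ranges of these 3 overlapped. Ciart was at 8.66 ± 2.76, Per3 at 6.76 ± 1.1, Per2 at 5.70 ± 1.03, Arntl at 5.45 ± 0.355 and Bhlhe41 at 4.88 ± 0.274 CPM per kilobase in FVB, and each overlapped its neighbour in this order over the 4 libraries. Per2 ranked lower in FVB (5.70 ± 1.03) than in the poly(I:C) knockout, where it was at 11.9 ± 3.80, or the saline knockout, where it was at 9.82 ± 3.53 CPM per kilobase (SD, n = 4).

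**Figure D1:**
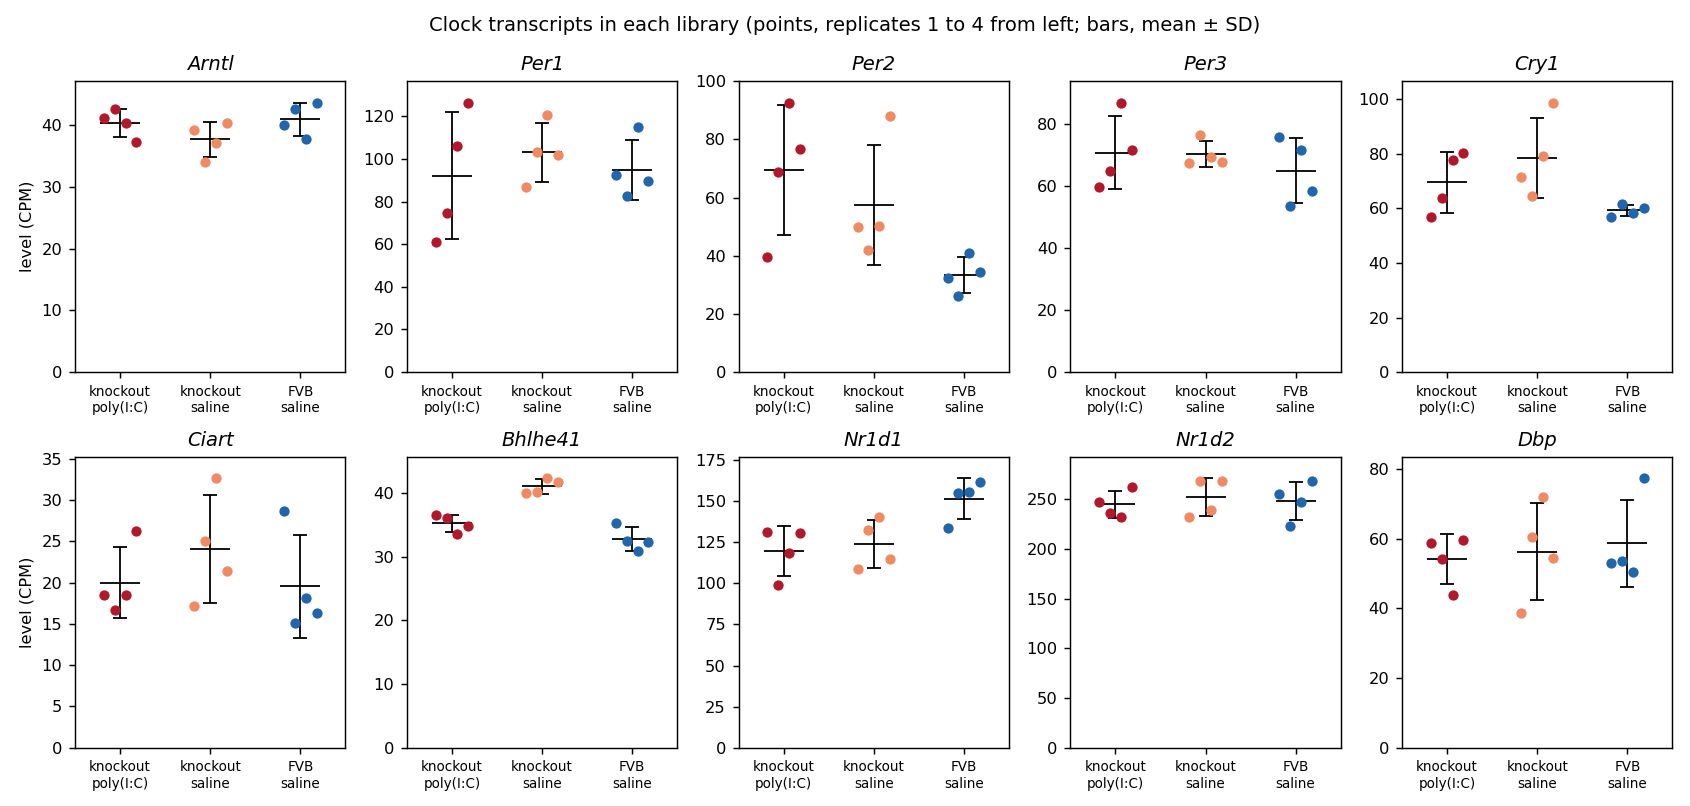
Level of the 10 clock genes in each library, in CPM (axes start at 0), for the poly(I:C) knockout, saline knockout and FVB groups, with points for replicates 1 to 4 and bars for the mean ± SD. Bhlhe41 stands apart in the saline knockout (40.1 to 42.3 CPM). Nr1d1 has its highest mean in FVB (134 to 162 CPM), overlapping the saline knockout (109 to 140 CPM). Per2 has its lowest mean in FVB (26.1 to 40.8 CPM), overlapping the poly(I:C) knockout (39.7 to 92.7 CPM).

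Arntl, the activator, was nearly level across the groups. Its level was 41.2, 42.7, 40.3 and 37.4 CPM in the poly(I:C) knockout (replicates 1 to 4, as in all such lists), 39.3, 34.1, 37.1 and 40.4 CPM in the saline knockout, and 40.1, 42.7, 37.7 and 43.7 CPM in FVB. The groups overlapped in all 3 comparisons. The log2 fold change was −0.12 for the saline knockout over FVB (95% interval −0.28 to 0.035), 0.10 for the poly(I:C) over the saline knockout (−0.056 to 0.25) and −0.021 for the poly(I:C) knockout over FVB (−0.18 to 0.13), by edgeR's quasi-likelihood fit. None passed (Benjamini-Hochberg adjusted p = 0.577, 0.576 and 0.904 by edgeR).

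Dbp, the D-box factor whose daily swing is among the widest of the clock genes, also overlapped between groups. It was at 58.7, 54.2, 43.9 and 59.6 CPM in the poly(I:C) knockout, 38.5, 60.4, 71.9 and 54.3 CPM in the saline knockout and 53.1, 53.7, 50.5 and 77.3 CPM in FVB. The libraries of 1 group differed by up to 1.87-fold (saline knockout), more than any group means differed. The log2 fold changes were −0.058 (95% interval −0.49 to 0.38) for the saline knockout over FVB, −0.056 (−0.49 to 0.38) for poly(I:C) over saline knockout and −0.11 (−0.55 to 0.32) for the poly(I:C) knockout over FVB. The edgeR adjusted p were 0.954, 0.934 and 0.793, so Dbp did not pass, and the intervals are wide enough to hold a moderate difference in either direction. Sphk2, a gene on the opposite strand, shares 18.0% of the exonic bases of Dbp.

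The log2 ratio of Dbp to Arntl was taken in each library as a description, without a test. Different hours can give the same ratio, so like ratios do not show a like hour of collection. It was 0.51, 0.34, 0.12 and 0.67 in poly(I:C) knockout 1 to 4, −0.028, 0.83, 0.95 and 0.43 in saline knockout 1 to 4, and 0.41, 0.33, 0.42 and 0.82 in FVB 1 to 4. The means were 0.41 ± 0.24, 0.54 ± 0.44 and 0.50 ± 0.22 (SD, n = 4) in these groups, closer to each other than the SD of any of them. The saline knockout held both the lowest and the highest ratio of the 12 libraries. The lowest was that of saline knockout 1 and the highest that of saline knockout 3.

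Bhlhe41, a repressor that binds E-boxes and is also called Dec2, rose in the saline knockout relative to FVB. It lies at chr6:145858243-145865558 on the minus strand of GRCm38. It was at 40.1, 40.1, 42.3 and 41.7 CPM in the saline knockout, against 35.3, 32.5, 30.9 and 32.3 CPM in FVB. Every saline knockout library lay above every FVB library. The log2 fold change was 0.32 (SE 0.0657, 1.25-fold, edgeR adjusted p = 0.0139). It was the only member called in this comparison, 1 of 10, where 1.53% of all tested genes were called (0.814% higher and 0.72% lower). The call ended without FVB 3 (log2 fold change 0.30, edgeR adjusted p = 0.0649) and held in the other 21 of 22 alternatives, among them that without the 3 libraries above 1000 CPM of Ttr (adjusted p = 0.0465).

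With poly(I:C), Bhlhe41 lay nearer to FVB. The poly(I:C) knockout had 36.5, 36.1, 33.6 and 34.8 CPM, all below the 4 saline knockout libraries and overlapping FVB. The difference from the saline knockout was −0.22 on the log2 scale (SE 0.0654) and was not called by edgeR (adjusted p = 0.0838), while DESeq2 called it (adjusted p = 0.0225). Against FVB the poly(I:C) knockout differed by 0.11 (95% interval −0.032 to 0.24, edgeR adjusted p = 0.377). These comparisons share the saline knockout or the FVB libraries, so they are not independent of one another. A gene annotated on the opposite strand, Gm43909, shares 19.0% of the exonic bases of Bhlhe41, and it was at 0.591, 0.710 and 0.510 CPM in the poly(I:C) knockout, saline knockout and FVB. The sources used here do not say whether counting used strand.

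**Figure D2:**
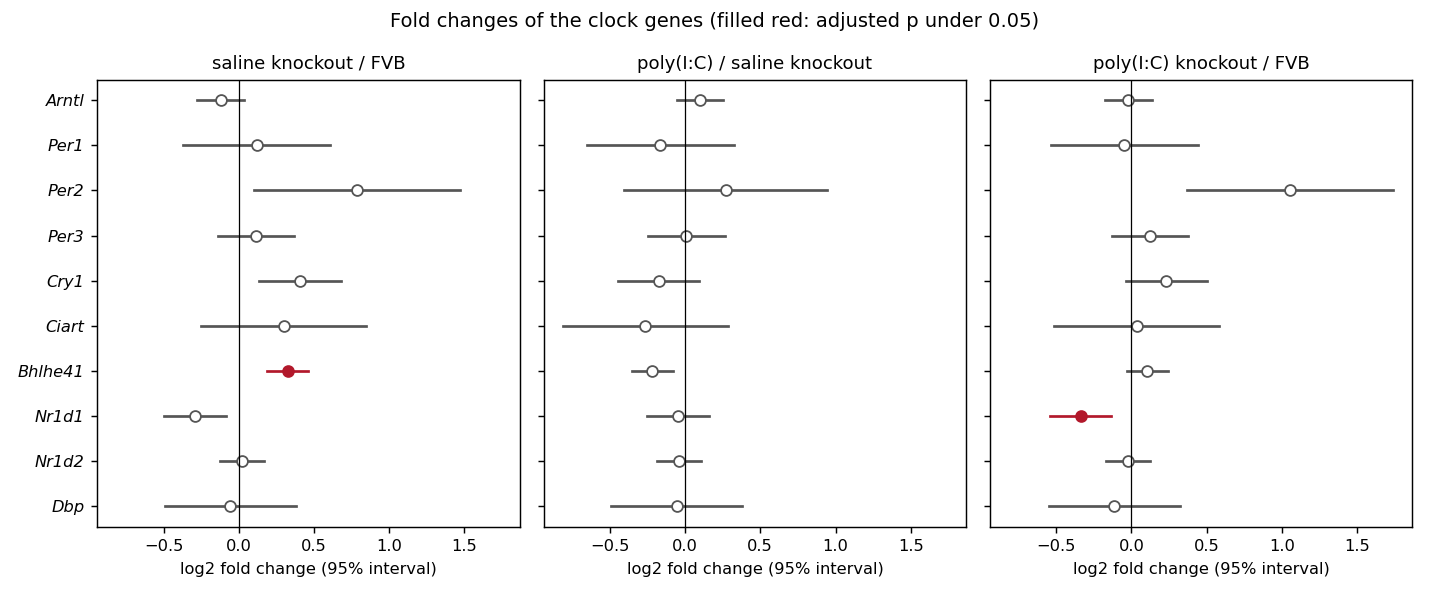
Log2 fold changes of the 10 genes with 95% intervals (horizontal axis, edgeR fit) for saline knockout over FVB, poly(I:C) over saline knockout and poly(I:C) knockout over FVB, with genes down the page. The filled red points mark Bhlhe41 (0.32, saline knockout over FVB) and Nr1d1 (−0.34, poly(I:C) knockout over FVB), which had an adjusted p under 0.05.

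Nr1d1, which encodes the heme-binding repressor REV-ERBα, fell in the poly(I:C) knockout relative to FVB. It lies at chr11:98767932-98775333 on the minus strand of GRCm38. It was at 131, 98.9, 119 and 130 CPM in the poly(I:C) knockout, 109, 132, 140 and 115 CPM in the saline knockout and 134, 155, 156 and 162 CPM in FVB. All 4 poly(I:C) knockout libraries lay below all 4 FVB libraries, and 3 of the 4 saline knockout libraries did. For the poly(I:C) knockout over FVB, Nr1d1 fell by 0.34 on the log2 scale (SE 0.0968, edgeR adjusted p = 0.0448), the only member called of 10, where 7.05% of all tested genes were called (3.81% higher and 3.24% lower). For the saline knockout over FVB the log2 fold change was −0.29 (SE 0.0968) and did not pass (edgeR adjusted p = 0.181), and between the knockout groups it was −0.048 (95% interval −0.25 to 0.16, adjusted p = 0.875).

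This call of Nr1d1 lay close to the threshold and was lost in 9 of 22 alternatives. Leaving out poly(I:C) knockout 2 or 3, saline knockout 2 or FVB 2, 3 or 4 ended it (edgeR adjusted p = 0.0532 to 0.123), and without the 3 libraries high in Ttr the log2 fold change was −0.21 (adjusted p = 0.445). Thra, a thyroid hormone receptor gene on the opposite strand, shares 8.55% of the exonic bases of Nr1d1. Thra was at 351, 346 and 323 CPM in the poly(I:C) knockout, saline knockout and FVB, with no call (edgeR adjusted p = 0.530 to 0.955). Nr1d2, which encodes the close relative REV-ERBβ, was called in no comparison. It was at 245 ± 13.5, 252 ± 19.1 and 248 ± 19.1 CPM (SD, n = 4) in those groups, with log2 fold changes of −0.041 to 0.019 and intervals within −0.19 to 0.17 (edgeR adjusted p = 0.844 to 0.957).

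Per2, a core repressor whose transcript responds both to the clock and to signals from outside the cell, showed the largest fold changes of the 10 genes and also the widest spread. It was at 39.7, 68.8, 92.7 and 76.8 CPM in the poly(I:C) knockout, 49.8, 42.0, 50.3 and 88.0 CPM in the saline knockout and 32.4, 26.1, 40.8 and 34.3 CPM in FVB. All 4 saline knockout libraries lay above all 4 FVB libraries, as did 3 of the 4 poly(I:C) knockout libraries, and poly(I:C) knockout 1 overlapped FVB. The log2 fold change was 0.79 (95% interval 0.10 to 1.47, edgeR adjusted p = 0.329) for the saline knockout over FVB and 1.05 (0.37 to 1.74, adjusted p = 0.0749) for the poly(I:C) knockout over FVB, and neither passed by edgeR. Without saline knockout 4, the highest of its group, the value for the saline knockout over FVB was 0.50. For the poly(I:C) knockout over FVB it passed by DESeq2 (adjusted p = 0.00835) and limma-voom (0.0309), and by edgeR without poly(I:C) knockout 1 (0.0247) or saline knockout 4 (0.0362). Without the 3 libraries high in Ttr it was 0.80 and did not pass (edgeR adjusted p = 0.448). Between the poly(I:C) and saline knockout the difference was 0.27 (−0.40 to 0.94, adjusted p = 0.741), and −0.11 without the 3 libraries high in Ttr.

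Cry1, the photolyase-like repressor that acts late in the cycle, was at 56.7, 64.0, 77.7 and 80.2 CPM in the poly(I:C) knockout, 71.4, 64.7, 79.3 and 98.8 CPM in the saline knockout and 56.9, 61.7, 58.4 and 60.2 CPM in FVB. The saline knockout lay wholly above FVB. That difference was 0.41 on the log2 scale (95% interval 0.14 to 0.68) and missed the threshold by edgeR (adjusted p = 0.157), while DESeq2 called it (adjusted p = 0.0377). Cry1 differed by −0.18 (−0.44 to 0.094, edgeR adjusted p = 0.562) between the poly(I:C) and saline knockout and by 0.23 (−0.038 to 0.50, adjusted p = 0.315) between the poly(I:C) knockout and FVB. In total Per2, Cry1 and Bhlhe41, 3 of 10 members, had no overlap between saline knockout and FVB, where 7.02% of all tested genes had none (3.57% higher and 3.45% lower). Between the poly(I:C) and saline knockout 1 member, Bhlhe41, had no overlap (9.75% of all genes, 4.93% higher and 4.82% lower), and between the poly(I:C) knockout and FVB 1 member, Nr1d1 (14.2%, with 6.74% higher and 7.46% lower). These counts of members were not tested against the shares of all genes, and the members were chosen with earlier results of these data known.

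The other repressors passed in no comparison. Per1, which light, glucocorticoids and neuronal activity induce within the hour in other settings, was at 60.8 to 126 CPM in the poly(I:C) knockout, 87.0 to 121 CPM in the saline knockout and 82.6 to 115 CPM in FVB. Its log2 fold changes were between −0.17 and 0.12, with intervals within −0.65 to 0.61 (edgeR adjusted p = 0.789 to 0.931). Per3, the period gene with the most dispensable role in mouse rhythms, was at 59.7 to 86.9, 67.4 to 76.5 and 53.7 to 75.9 CPM in those groups (log2 fold changes 0.0088 to 0.12, adjusted p = 0.606 to 0.984). Ciart, the repressor also called CHRONO, was at 16.7 to 26.3, 17.2 to 32.7 and 15.1 to 28.7 CPM (log2 fold changes −0.26 to 0.30, adjusted p = 0.680 to 0.956).

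Between the poly(I:C) and saline knockout, edgeR's quasi-likelihood test called 0 of the 10 members, where 2.87% of all tested genes were called, 1.81% higher and 1.06% lower (1 member at an unadjusted p under 0.05, 1 by DESeq2 and 0 by limma-voom). The members' median log2 fold change was −0.052, beside −0.0017 over all tested genes, with 7 of 10 negative. For the saline knockout over FVB the median was 0.12, beside 0.0033 over all genes, with 7 of 10 positive. For the poly(I:C) knockout over FVB it was 0.0063, beside 0.0010, with 5 of 10 positive.

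Among 28 other clock genes, those of the activator arm and the loops around it, the poly(I:C) knockout differed in a few. Npas2, which can stand in for CLOCK as the partner of ARNTL, rose to 4.23, 4.56, 7.08 and 5.77 CPM in the poly(I:C) knockout, against 3.60, 1.99, 2.43 and 3.01 CPM in the saline knockout and 3.41, 3.29, 3.20 and 3.17 CPM in FVB. Every poly(I:C) library lay above every library of the other groups. The log2 fold change was 0.97 (SE 0.197, edgeR adjusted p = 0.00797) over the saline knockout and 0.73 (SE 0.196, adjusted p = 0.0300) over FVB. Without the 3 libraries high in Ttr it was 0.73 and 0.61 and did not pass (adjusted p = 0.212 and 0.163), and the call against FVB also ended without poly(I:C) knockout 3 or 4 or any 1 FVB library (adjusted p = 0.0540 to 0.130). The call over the saline knockout held in the other 21 of 22 alternatives, and the call over FVB held in 15 of 22. Npas2 was the only one of the 28 called between the knockout groups, where 2.87% of all genes were called. Hlf (−0.22), Tipin (−0.22) and Rora (−0.15) came next and did not pass (edgeR adjusted p = 0.112, 0.173 and 0.284).

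Against FVB, 4 of the 28 were called in the poly(I:C) knockout, 2 up and 2 down, where 7.05% of all genes were called. The count was 0 without the 3 libraries high in Ttr, 1 without poly(I:C) knockout 3 or FVB 4, and 2 without poly(I:C) knockout 4, FVB 1 or FVB 3 or with log2 Ttr as a covariate. Besides Npas2, Timeless, which in mammals acts mainly at replication forks, rose (12.7 ± 1.00 CPM in the poly(I:C) knockout against 9.35 ± 1.13 CPM in FVB, log2 0.44, edgeR adjusted p = 0.0292). Its partner Tipin fell (25.3 ± 1.59 CPM in the poly(I:C) knockout against 32.2 ± 1.84 CPM in FVB, log2 −0.35, adjusted p = 0.0106). Rora, a receptor that activates Arntl through the RRE and is abundant in Purkinje cells, fell as well (329 ± 16.2 CPM in the poly(I:C) knockout against 394 ± 22.5 CPM in FVB, SD, n = 4, log2 −0.26, adjusted p = 0.0219). Without the 3 libraries high in Ttr none of these 3 passed (edgeR adjusted p = 0.0562 to 0.315). Timeless also lost its call without poly(I:C) knockout 1, 3 or 4 or FVB 3 or 4 (0.0534 to 0.0976), and Rora without poly(I:C) knockout 2 or 3 or FVB 1 or 4 (0.0564 to 0.0911). For the saline knockout over FVB edgeR called 0 of the 28 (4 at an unadjusted p under 0.05, 0 by DESeq2 and 0 by limma-voom). Among these were Clock (−0.26), Hlf (0.20) and Cry2 (0.24), with edgeR adjusted p from 0.153 to 0.267. The median log2 fold change of the 28 was between −0.039 and −0.0087 in the 3 comparisons.

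Signals from outside the clock can move Per1 and Per2, so 2 lists of such genes were read beside them. Of 16 glucocorticoid-inducible genes 2 rose in the poly(I:C) over the saline knockout, where 1.81% of all genes were called higher. They were Plin4, a lipid droplet protein gene (30.7 ± 16.3 CPM with poly(I:C) against 3.51 ± 1.5 CPM with saline, log2 3.14, edgeR adjusted p = 0.0380), and Map3k6, a stress kinase gene (11.0 ± 7.08 CPM with poly(I:C) against 1.75 ± 0.356 CPM with saline, log2 2.66, adjusted p = 0.0414). Both calls were lost on leaving out poly(I:C) knockout 3 or 4, any 1 saline knockout library, or FVB 3 or 4 (adjusted p = 0.0563 to 0.117), and without the 3 libraries high in Ttr (0.357 and 0.212). Over FVB both were called higher, as were 3.81% of all genes. The log2 fold changes were 3.11 for Plin4 and 2.82 for Map3k6 (edgeR adjusted p = 0.0223 and 0.0188). These calls too were lost without the 3 libraries high in Ttr (0.136 and 0.0572), with only the 2 groups in the fit (0.0602 and 0.0707), without FVB 3 (0.0572 and 0.0536) and without FVB 4 (0.0700 and 0.0610), and that of Plin4 also without poly(I:C) knockout 3 (0.0664) or 4 (0.0556). Between the knockout groups 14 of the 16 were positive, with a median log2 fold change of 0.69, beside −0.0017 over all genes. The list was chosen with earlier results of these data known, so this count and median are descriptions and were not tested. For the saline knockout over FVB edgeR called 0 of the 16, with 0 at an unadjusted p under 0.05. The summed level of the list was 1098 to 1820 CPM in the poly(I:C) knockout, 865 to 1079 CPM in the saline knockout and 762 to 1453 CPM in FVB. Mt1 averaged 564, 258 and 258 CPM in these groups. Klf9 averaged 312, 316 and 331 CPM and Sgk1 82.2, 86.0 and 105 CPM, so the sum does not describe all 16 alike. Of 12 tested immediate early genes, which neuronal activity induces, edgeR called 0 in each of the 3 comparisons, with 0 at an unadjusted p under 0.05. The summed level of all 13 immediate early genes listed, tested or not, ranged from 199 to 348 CPM in the poly(I:C) knockout. It was 264 to 370 CPM in the saline knockout and 144 to 409 CPM in FVB. What part such signals have in the levels of Per1 and Per2 was not tested.

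The clock genes differed from one another in how much libraries of the same group varied. The SD between libraries of a group, on the log2 scale, was 0.43 for Per2, 0.37 for Ciart, 0.32 for Per1 and 0.30 for Dbp, against a median of 0.18 over all 19166 genes. For Per2 it was larger than for 99.2% of the 1000 tested genes nearest to it in mean level, for Per1 99.0%, Dbp 98.5%, Ciart 97.2%, Cry1 95%, Per3 94.0% and Nr1d1 90.8%. Nr1d2 (61.3%), Arntl (29.7%) and Bhlhe41 (2.40%) did not stand out in this way. Bhlhe41, with an SD of 0.060, was thus called for a smaller difference than those that Per2 and Cry1 showed without a call.

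**Figure D3:**
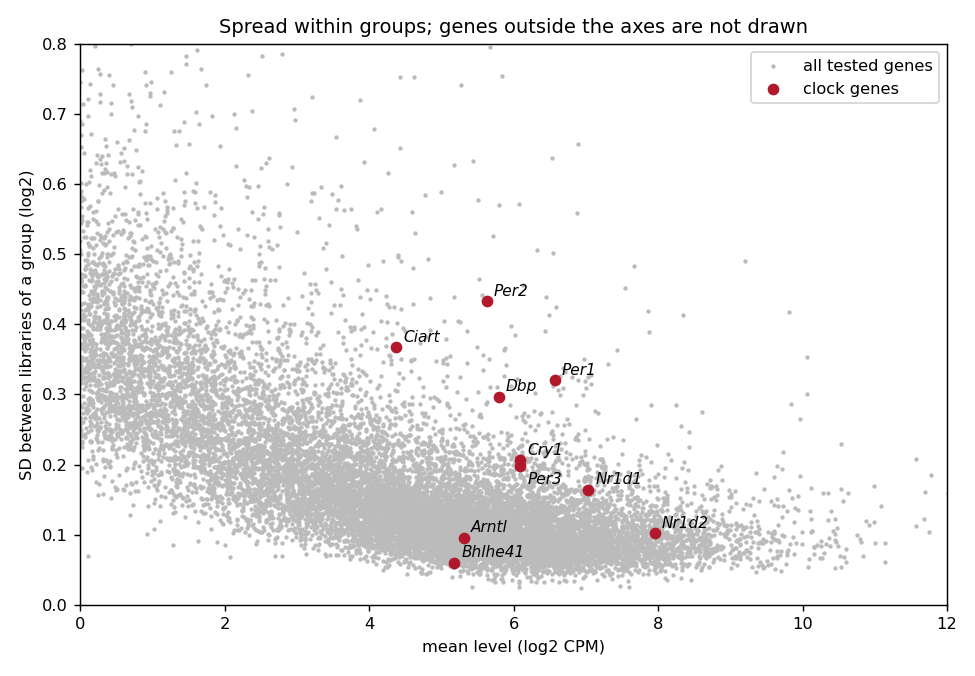
SD of log2 CPM between libraries of the same group (vertical axis) against mean log2 CPM (horizontal axis) for the tested genes within the axes in grey and the 10 clock genes in red. Per2 (0.43), Ciart (0.37), Per1 (0.32) and Dbp (0.30) lie above most genes of like level, and Bhlhe41 (0.060) lies among the lowest.

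Several libraries held the highest or lowest level of their group for several members. With 4 libraries in a group, each would hold some of these extremes by chance, and the counts were not tested. Saline knockout 1 had the lowest level of its group for 7 of the 10 genes (Per1, Per3, Ciart, Bhlhe41, Nr1d1, Nr1d2 and Dbp). Saline knockout 3 had the highest for 5 of the 10, Per1, Ciart, Bhlhe41, Nr1d1 and Dbp, and saline knockout 4 for Arntl, Per2, Cry1 and Nr1d2. Poly(I:C) knockout 4 was highest for Per1, Cry1, Ciart, Nr1d2 and Dbp and lowest for Arntl. Poly(I:C) knockout 1 was lowest for Per1, Per2, Per3 and Cry1. FVB 4 was highest for Arntl, Nr1d1, Nr1d2 and Dbp, and FVB 2 was lowest for Per1, Per2, Per3, Ciart and Nr1d2.

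**Figure D4:**
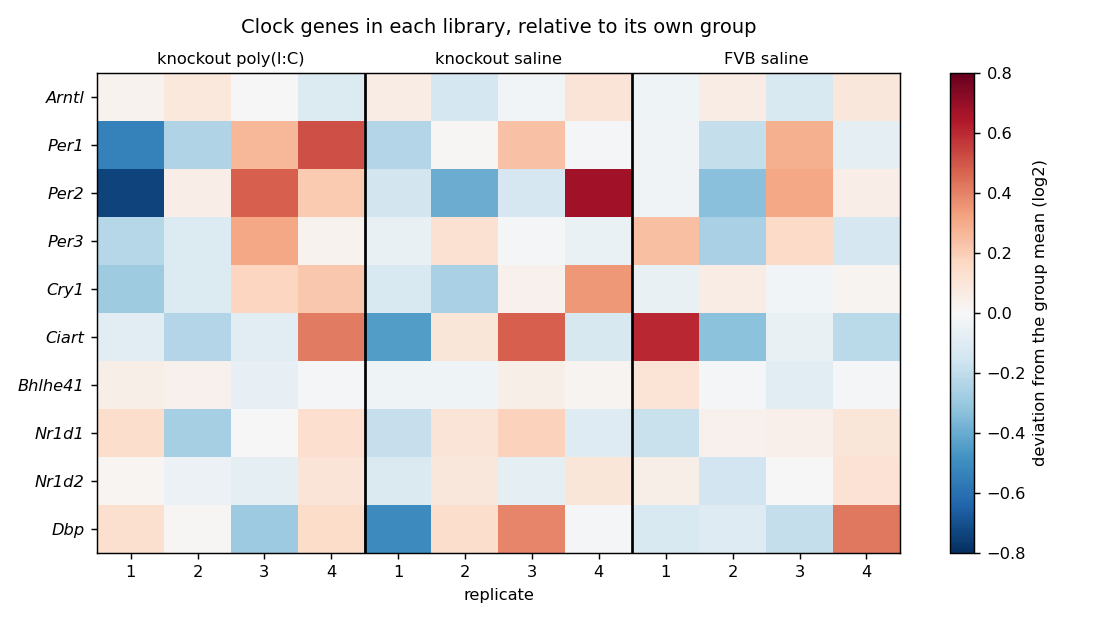
Deviation of each gene from its own group's mean (log2 CPM, colour) in each of the 12 libraries, with replicates 1 to 4 of the poly(I:C) knockout, saline knockout and FVB groups from left. In saline knockout 1 Dbp was at −0.51 and Ciart at −0.45, and in saline knockout 3 they were at 0.39 and 0.48.

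Likeness to Dbp and to Arntl was ranked over 13515 other genes by Pearson r across the 12 libraries, after each group's mean was subtracted. These r are descriptions, since all genes share the depth and tissue content of each library, which differ between libraries. The extremes of so many genes are also high by selection. The genes most like Dbp were Ndufaf6 (r = 0.97), Nudcd2 (0.92), Dand5 (0.92), Smg8 (0.92) and Rrp9 (0.90), and among the most opposite were Gjc1 (−0.91), Ube4a (−0.89), Lingo2 (−0.88) and Asxl3 (−0.86). Of the members, Nr1d1 stood closest to Dbp (r = 0.61, rank 265), then Nr1d2 (0.52, rank 620) and Ciart (0.39, rank 1596). The genes most like Arntl were Scrt2 (0.96), Csnk2a1 (0.89), Acbd6 (0.89), Mgme1 (0.89) and Scg3 (0.87), and the most opposite were Cpsf4 (−0.91), Fancg (−0.89), Gabpb2 (−0.88), Blm (−0.86) and Rdh13 (−0.86). The members farthest from Arntl were Per1 (r = −0.61, rank 13164), Per3 (−0.59, rank 13100) and Ciart (−0.58, rank 13054). Dbp and Arntl themselves had an r of −0.048.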

How the data were processed

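Bulk RNA of 12 libraries was analysed from the gene counts the authors deposited, with no normalization. Per the submitters' processing notes, Trim Galore, HISAT2, featureCounts and the GRCm39 build were used; the sources used here do not give the strand setting, the annotation release or the treatment of reads matching several genes. Symbols came from GENCODE M21 (GRCm38), which named 52029 of 57010 IDs. The count table was filtered with edgeR's filterByExpr (minimum count 10, minimum total 15), scaled by TMM and fitted by robust quasi-likelihood (edgeR 4.0.16, R 4.3.3) with 3 group means. P-values were adjusted by Benjamini-Hochberg over 19166 genes, with calls at an adjusted p under 0.05. CPM use TMM-scaled library sizes, and log2 CPM a prior count of 2. Each standard error is the size of the log2 fold change divided by √F. Libraries held 35.2 to 56.4 M counts. DESeq2 1.42.0, limma-voom (limma 3.58.1), other scalings and filters, a replicate block, each library left out, and 2 alternatives chosen after seeing the data (without the 3 libraries high in Ttr, and log2 Ttr as a covariate) were tried.

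The members and the gene lists were chosen with earlier results of these data known. All 10 members are named in every comparison. Of 28 other clock genes every one called in any comparison is named, and otherwise up to 4 per comparison by smallest p; of the glucocorticoid-inducible and immediate early lists, up to 4 called genes per comparison. Genes alike to Dbp and Arntl are the 5 highest and 5 lowest by r among genes averaging at least 1 on the log2 CPM scale. A few genes that these rules name are not reported here. Fmr1 checks the labels, Ttr marks the libraries that stand apart, and genes sharing exonic bases with a member were added after values were seen.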

Additional observations from a re-analysis of the deposited data

Results flagged for a closer look

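Dbp in FVB 4, at 77.3 CPM, stood apart from the other 3 FVB libraries, which were at 50.5 to 53.7 CPM. Its gap to the nearest of them was 0.881 of the whole range of the group, above Dixon's 95% critical value for 4 samples. It was the only one among 30 sets of 4 libraries examined (10 genes in 3 groups), and chance flags about 1 in 20 such sets. FVB 4 was also the highest of its group for Arntl, Nr1d1 and Nr1d2.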

How the results depend on the processing

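Of the 660 values of the 10 genes in 3 comparisons under 22 alternatives, 609 kept their direction and their side of the threshold, 10 lost a call, 7 gained one and 34 changed sign, all 34 in differences that were not called. DESeq2 called 2, 1 and 2 members for the saline knockout over FVB, the poly(I:C) over the saline knockout and the poly(I:C) knockout over FVB, and 633 and 986 of all genes in the first 2 of these; limma-voom called 2 members in the third. With no filter on low counts 506 genes were called for the saline knockout over FVB. At an adjusted p under 0.1 the comparisons gave 494, 917 and 2123 genes, with 1 member in the second and 2 in the third. Over all tested genes, the deviations of same-numbered libraries had r between −0.099 and 0.15 in 12 pairs, 2 over 0.1. Differently numbered pairs were not compared, so these r cannot tell whether the numbers mark a shared litter, batch or day. With the replicate block edgeR called 2 members for the saline knockout over FVB, with Cry1 added (adjusted p = 0.0491). It called 0 for the poly(I:C) knockout over FVB.

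Leaving out poly(I:C) knockout 2 and 3 and saline knockout 2, 215 genes were called for the poly(I:C) over the saline knockout and 556 for the poly(I:C) knockout over FVB, with 0 members in the third comparison, as with log2 Ttr as a covariate (0). These leave 2 and 3 libraries in the knockout groups. Log2 fold changes that changed sign without them were, for the poly(I:C) over the saline knockout, Per2 (−0.11), Per3 (−0.055), Nr1d1 (0.11), Nr1d2 (0.050) and Dbp (0.11), for the saline knockout over FVB Nr1d2 (−0.010), and for the poly(I:C) knockout over FVB Nr1d2 (0.040) and Dbp (0.016). Per3 also changed sign between the knockout groups by limma-voom (−0.0082), with the replicate block (−0.0024) and with log2 Ttr as a covariate (−0.022). The causes were not tested.

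Leaving out each library in turn gave 0 to 1, 0 to 0 and 0 to 2 called members and 156 to 300, 347 to 689 and 791 to 1542 called genes in the 3 comparisons. Log2 fold changes that changed sign ranged, for the poly(I:C) knockout over FVB, from −0.058 to 0.016 for Arntl, −0.12 to 0.28 for Ciart, −0.18 to 0.047 for Dbp, −0.070 to 0.017 for Nr1d2 and −0.24 to 0.11 for Per1. For the poly(I:C) over the saline knockout they ranged from −0.20 to 0.084 for Dbp, −0.11 to 0.037 for Nr1d1 and −0.10 to 0.084 for Per3, and for the saline knockout over FVB from −0.20 to 0.10 for Dbp and −0.029 to 0.058 for Nr1d2. With 4 libraries a group, the 95% intervals of Per1, Per2, Ciart and Dbp are wide; what part depth has in this was not tested.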
